A study of Homo sapiens with 6 samples.

Results

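The atlastin ATL3 and 9 further genes whose products shape the endoplasmic reticulum (ER) were followed in HCT116 cells after POU2F1 knockdown. The set holds the atlastins ATL1, ATL2 and ATL3, the reticulons RTN3 and RTN4, the REEP proteins REEP3, REEP4 and REEP5, and LNPK and CKAP4. Rows were matched by gene symbol, which gave 10 genes of the 20474 annotated genes measured. The group was chosen by the low level of ATL3 in this same comparison, in which 6 of 11831 tested genes had a lower log2 fold change. The other 9 members were added by their known function. All values of the comparison are therefore descriptions of these libraries and lend no independent support to a difference.

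Gene expression was measured by sequencing of polyA RNA in HCT116, an established human colorectal cancer cell line. The siPOU2F1 group held 3 libraries from cells transfected with an siRNA against POU2F1, labelled as POU2F1 knockdown. The sicontrol group held 3 libraries from cells given the control siRNA, labelled WT. RNA was taken 48 h after transfection in both groups, and 2 µg went into each library. All libraries come from the same cell line, and no siRNA sequence is printed because no source used here holds it. Nothing in the labels says that the replicates were separate cultures, so the p-values measure the spread between libraries, which may be technical.

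The ER is a continuous membrane of flat sheets and branching tubules. Reticulons and REEP proteins insert hairpins into the membrane and bend it into tubules. Atlastins are GTPases that tether and fuse tubules into a network, and LNPK, or lunapark, sits at the branch points of that network. CKAP4, also called CLIMP-63, is a coiled-coil protein that marks sheets and spaces their lumen. ATL3 and RTN3 are also known as receptors that deliver ER tubules to autophagy.

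The promoters of ATL3 and ATL2, the members called lower below, and of RTN3, the gene next to ATL3, are shown so that the search for the binding motif of POU2F1 can be followed. POU2F1 encodes OCT1, which binds the octamer ATGCAAAT. Each window below comes from RefSeq (GRCh38.p14) and runs 5′ to 3′ along the gene, with 250 bases before the annotated start in lower case and the 50 bases from it in capitals. They are chr11:63671327-63671626 on the minus strand for ATL3, chr2:38377224-38377523 on the minus strand for ATL2 and chr11:63681200-63681499 on the plus strand for RTN3.
ATL3: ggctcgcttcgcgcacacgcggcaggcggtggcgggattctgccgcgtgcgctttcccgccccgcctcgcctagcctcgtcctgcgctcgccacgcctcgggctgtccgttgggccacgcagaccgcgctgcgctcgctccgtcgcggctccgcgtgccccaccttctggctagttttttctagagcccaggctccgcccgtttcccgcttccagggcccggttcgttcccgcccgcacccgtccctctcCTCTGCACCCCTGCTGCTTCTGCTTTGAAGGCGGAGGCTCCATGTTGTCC
ATL2: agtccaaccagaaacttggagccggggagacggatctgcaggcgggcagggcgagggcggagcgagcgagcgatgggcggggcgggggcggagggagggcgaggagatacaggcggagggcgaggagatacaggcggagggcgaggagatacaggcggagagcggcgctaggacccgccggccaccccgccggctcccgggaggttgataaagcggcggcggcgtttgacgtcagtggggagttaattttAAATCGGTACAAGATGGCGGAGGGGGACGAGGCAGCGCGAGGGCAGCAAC
RTN3: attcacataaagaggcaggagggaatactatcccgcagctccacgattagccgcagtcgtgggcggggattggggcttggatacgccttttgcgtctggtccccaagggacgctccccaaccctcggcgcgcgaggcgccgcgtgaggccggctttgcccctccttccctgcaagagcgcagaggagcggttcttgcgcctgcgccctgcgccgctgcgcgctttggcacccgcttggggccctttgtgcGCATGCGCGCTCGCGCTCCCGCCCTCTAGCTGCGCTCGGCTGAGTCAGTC

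The table held 3 windows for ATL2, and the one printed spans the start of the gene in the annotation used here, at 38377285. The RTN3 window likewise spans the start of RTN3 in that annotation, at 63681446. The ATL3 window does not reach the start of ATL3 in that annotation, at 63671921, so the search did not cover it. The ATL3 window was 70.7% G and C with 38 CG pairs, the printed ATL2 window 68.3% with 34, the other ATL2 windows 71% with 34 and 36% with 4, and the RTN3 window 67.3% with 33, against a median of 58.7% over all windows of the table. The octamer ATGCAAAT was searched on both strands, and so was the looser ATGCNAAT, which includes it. Windows of 8 members were searched, 20 in all. For ATL1, CKAP4, REEP5 and RTN4 too, no window spans the start of the gene in that annotation. RTN4 had the most windows, and some windows of RTN4 and of LNPK overlap each other. The octamer was in 0 of these 20 windows, and ATGCNAAT was also in 0. This says only that these letters are not in these windows. Over all 35116 windows of the same length, 1.77% held the octamer and 2.97% the looser form. REEP3 had no window, and REEP4 was left out of this search.

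POU2F1 itself measured 1.87, 1.69 and 1.73 FPKM in siPOU2F1 replicates 1 to 3, against 4.16, 3.60 and 4.26 FPKM in sicontrol replicates 1 to 3, or 44.0% of the control mean (FPKM, a count of fragments corrected for transcript length and sequencing depth). The knockdown was therefore partial at the RNA level. The siPOU2F1 replicate 3 library stood apart. Across genes it correlated with the other siPOU2F1 libraries at 0.946 and 0.948 but with sicontrol replicate 2 at 0.977. Replicates 1 and 2 of siPOU2F1 correlated with each other at 0.989, the highest of any pair. Fits without replicate 3 rest in that group on these very similar libraries, and whether they are technical repeats is unknown. FPKM carry no read counts, so the depth behind a value is unknown. The cells showed their epithelial markers, with all 8 of the list (EPCAM, KRT8, KRT18 and others) above 1 FPKM on average. The summed level of these markers lay between 3851 and 5449 FPKM in siPOU2F1 and between 2826 and 3705 FPKM in sicontrol. KRT8 and KRT18 had the highest levels in this sum. KRT18 lay between 1788 and 2185 FPKM in siPOU2F1 and between 1271 and 1543 FPKM in sicontrol. For every other marker of the list, EPCAM and KRT8 included, the groups overlapped. The part of the summed level in the results was not tested. Of the markers of other lineages, PTPRC of leukocytes, DCN and COL3A1 of fibroblasts and STMN2 of neurons were listed at 0 in all 6 libraries. Others were present, and those averaging 1 FPKM or more were 1 of 6 fibroblast markers (COL1A1), 1 of 6 leukocyte markers (CD68), 2 of 5 neuron markers (SYT1 and SNAP25) and 0 of 5 endothelial markers. Neuron markers summed to between 11.3 and 12.0 FPKM in siPOU2F1 and between 8.54 and 9.95 FPKM in sicontrol, without overlap. SYT1 and SNAP25, taken singly, each overlapped between groups. Fibroblast markers summed to between 1.88 and 3.69 FPKM in siPOU2F1 and between 2.17 and 2.69 FPKM in sicontrol, and leukocyte markers to between 6.51 and 7.83 FPKM in siPOU2F1 and between 5.94 and 7.69 FPKM in sicontrol. Endothelial markers summed to between 0.597 and 0.708 FPKM in siPOU2F1 and between 0.738 and 0.979 FPKM in sicontrol, also without overlap. Each of them was under 1 FPKM in every library, and VWF, the highest, overlapped between groups. Of single tested genes, 11.3% had every siPOU2F1 library above every sicontrol library and 12.0% had every one below. The part of these markers in the results was not tested. In bulk RNA, fewer cells expressing a gene and less RNA per cell cannot be told apart.

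Among the atlastins, ATL3 and ATL2 were both lower after POU2F1 knockdown. ATL3 stood at 19.7% of its control level and ATL2 at 52.5%, while ATL1, the lowest of the atlastins in sicontrol, was not called. Groups were compared with limma on log2(FPKM + 0.5), with calls made under an adjusted p of 0.05 over all 11831 tested genes. Of the 10 members, all of which passed the filter of a mean of 1 FPKM, 2 were called lower and 0 higher. Among all tested genes 0.845% were called lower and 0.397% higher. Since ATL3 was picked from this comparison, nothing is read from these counts. At an unadjusted p under 0.05 the fit had 6 members, 5 lower and CKAP4 higher, against 18.1% of all tested genes.

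ATL3 (ENSG00000184743; chromosome 11, 63624087 to 63671921, minus strand, GRCh38) is an atlastin of broad expression, mutated in a hereditary sensory neuropathy. It measured 2.56, 3.13 and 5.16 FPKM in siPOU2F1 replicates 1 to 3, against 16.8, 20.9 and 17.4 FPKM in sicontrol replicates 1 to 3. The groups did not overlap, and the highest siPOU2F1 value came from replicate 3, the library that stood apart. The mean was 3.62 ± 1.36 FPKM in siPOU2F1 and 18.3 ± 2.21 FPKM in sicontrol (SD, n = 3 each), which is 5.07-fold lower. The log2 fold change was -2.24, SE 0.24, and -2.49, SE 0.15, without siPOU2F1 replicate 3. With any of the other 5 libraries left out in turn, neither ATL3 nor ATL2 was called, and the fold change of ATL3 lay between -2.30 and -2.05. The antisense gene AP000753.2 covers 1.59% of the exonic bases of ATL3 on the opposite strand and is not used here.

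ATL2 (ENSG00000119787; chromosome 2, 38294880 to 38377285, minus strand) encodes the atlastin with the highest level in these cells. It measured 24.7, 26.3 and 20.9 FPKM in siPOU2F1 replicates 1 to 3, against 45.6, 39.4 and 52.0 FPKM in sicontrol replicates 1 to 3. All siPOU2F1 values lay below all sicontrol values, and here replicate 3 was the lowest of the siPOU2F1 libraries. The mean was 24.0 ± 2.80 FPKM in siPOU2F1 and 45.6 ± 6.30 FPKM in sicontrol (SD, n = 3 each). On the log2 scale ATL2 fell by 0.91, SE 0.14 (limma, adjusted p = 0.0391, and 195 tested genes were at or below this fold change). Without siPOU2F1 replicate 3 the adjusted p was 0.0116, and without any of the other 5 libraries in turn it lay between 0.114 and 0.231 (limma; 0.000492 to 0.297 over all alternatives).

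ATL1 (ENSG00000198513; chromosome 14, 50532509 to 50633068, plus strand) is the atlastin best known from neurons, where mutations cause hereditary spastic paraplegia. ATL1 measured 4.997, 5.01 and 3.17 FPKM in siPOU2F1 replicates 1 to 3, against 3.93, 2.79 and 3.47 FPKM in sicontrol replicates 1 to 3. The groups overlapped, because replicate 3 of siPOU2F1 lay among the controls while its other replicates lay above them. The log2 fold change was 0.32, SE 0.21 (limma, adjusted p = 0.44), and it was 0.20 without sicontrol replicate 2, 0.22 without siPOU2F1 replicate 1 or 2 and 0.51 without siPOU2F1 replicate 3 (adjusted p = 0.0612; 0.0308 to 0.808 over all alternatives, the lowest with library weights).

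Summed over the 3 genes, atlastin mRNA came to 32.3, 34.5 and 29.2 FPKM in siPOU2F1 replicates 1 to 3, against 66.3, 63.0 and 72.9 FPKM in sicontrol replicates 1 to 3. The sum was below the lowest control in every siPOU2F1 library and averaged 47.5% of the control sum. ATL3 made up 7.94%, 9.08% and 17.7% of it in siPOU2F1 replicates 1 to 3, against 25.3%, 33.1% and 23.9% in sicontrol replicates 1 to 3. ATL1 made up 13.6 ± 2.44% in siPOU2F1 and 5.04 ± 0.797% in sicontrol (SD, n = 3 each), and ATL2 held the largest share in all 6 libraries. The longest stretch identical between annotated protein-coding transcripts was 27 bases for ATL2 and ATL3, 25 for ATL1 and ATL2 and 15 for ATL1 and ATL3.

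**Figure D1:**
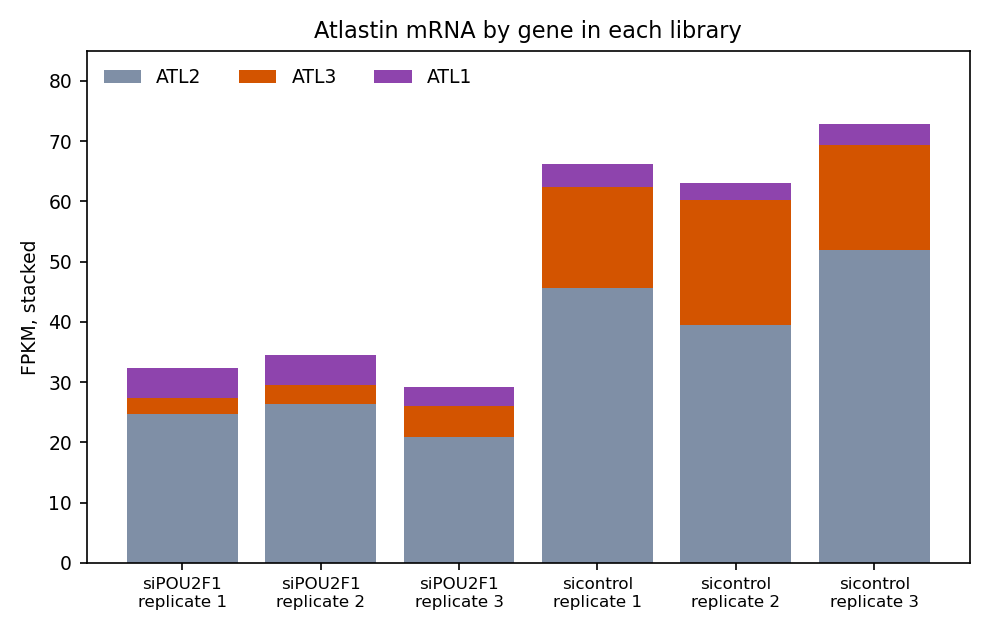
Stacked FPKM of ATL2, ATL3 and ATL1 (y axis) in each of the 6 libraries (x axis). The siPOU2F1 sums lie between 29.2 and 34.5 FPKM and the sicontrol sums between 63.0 and 72.9 FPKM, with a thinner ATL3 layer in the siPOU2F1 libraries.

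Neither reticulon was called. RTN4 (ENSG00000115310; chromosome 2, 54972187 to 55112621, minus strand), also known as Nogo, forms ER tubules and in the nervous system limits axon growth. RTN4 measured 70.7, 82.0 and 103 FPKM in siPOU2F1 replicates 1 to 3, against 130, 137 and 117 FPKM in sicontrol replicates 1 to 3. The groups did not overlap, with replicate 3 of each siRNA closest to the other group. Its log2 fold change was -0.60, SE 0.15 (limma, adjusted p = 0.115). Without siPOU2F1 replicate 3 it was -0.75 with an adjusted p of 0.0101 (limma; 0.000852 to 0.423 over all alternatives).

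RTN3 (ENSG00000133318; chromosome 11, 63681446 to 63759891, plus strand) encodes a reticulon whose long form is an ER-phagy receptor. It measured 80.6, 90.5 and 95.1 FPKM in siPOU2F1 replicates 1 to 3, against 88.3, 96.1 and 87.5 FPKM in sicontrol replicates 1 to 3. The groups overlapped, with siPOU2F1 replicate 1 below every control, and the log2 fold change was -0.03, SE 0.10 (limma, adjusted p = 0.872). The annotation holds a processed pseudogene, RTN3P1, which is not used here, and how reads shared with it were assigned is unknown. The ratio of RTN4 to RTN3 was 0.877, 0.907 and 1.08 in siPOU2F1 replicates 1 to 3, against 1.48, 1.43 and 1.34 in sicontrol replicates 1 to 3. RTN4 was thus the more abundant reticulon in every sicontrol library, and in siPOU2F1 only in replicate 3.

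Among the REEP proteins, REEP5 is the abundant tubule-bending form, while REEP3 and REEP4 are known for clearing ER from chromosomes in mitosis. REEP4 (ENSG00000168476) measured 16.0, 16.1 and 19.4 FPKM in siPOU2F1 replicates 1 to 3, against 24.8, 22.5 and 22.0 FPKM in sicontrol replicates 1 to 3. The groups did not overlap, and the log2 fold change was -0.42, SE 0.12 (limma, adjusted p = 0.149). REEP3 (ENSG00000165476; chromosome 10, 63521363 to 63625123, plus strand) measured 8.39, 10.4 and 14.7 FPKM in siPOU2F1 replicates 1 to 3, against 13.3, 14.1 and 13.2 FPKM in sicontrol replicates 1 to 3. Replicates 1 and 2 of siPOU2F1 lay below every control and replicate 3 above every control, so the fold change of -0.31 (SE 0.20; limma, adjusted p = 0.42) averages libraries that differ in direction.

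REEP5 (ENSG00000129625; chromosome 5, 112876379 to 112922539, minus strand) measured 36.9, 37.1 and 59.9 FPKM in siPOU2F1 replicates 1 to 3, against 43.2, 45.9 and 37.9 FPKM in sicontrol replicates 1 to 3. As for REEP3, replicate 3 was above all controls and replicates 1 and 2 below all of them. The log2 fold change was 0.04, SE 0.20 (limma, adjusted p = 0.923) and turned to -0.19 without siPOU2F1 replicate 3 (adjusted p = 0.228; 0.112 to 0.949 over all alternatives). Without that library REEP3 was called at -0.51 (limma, adjusted p = 0.03; 0.013 to 0.839 over all alternatives) and REEP4 at -0.51 (limma, adjusted p = 0.0184; 0.00107 to 0.482 over all alternatives).

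LNPK (ENSG00000144320; chromosome 2, 175923892 to 176002839, minus strand) measured 5.80, 6.84 and 5.07 FPKM in siPOU2F1 replicates 1 to 3, against 14.6, 7.31 and 9.41 FPKM in sicontrol replicates 1 to 3. The groups did not overlap, but the controls spread widely and sicontrol replicate 2 lay just above siPOU2F1 replicate 2. The log2 fold change was -0.73, SE 0.25 (limma, adjusted p = 0.202), and without sicontrol replicate 1, the highest library, it was -0.47.

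CKAP4 (ENSG00000136026; chromosome 12, 106237877 to 106304279, minus strand), the sheet protein, measured 21.8, 22.3 and 18.3 FPKM in siPOU2F1 replicates 1 to 3, against 14.8, 15.4 and 18.9 FPKM in sicontrol replicates 1 to 3. Replicate 3 of siPOU2F1 lay just below sicontrol replicate 3, and the other libraries were separated by siRNA. The log2 fold change was 0.34, SE 0.14 (limma, adjusted p = 0.265), and 0.42 without siPOU2F1 replicate 3 (adjusted p = 0.0558; 0.00295 to 0.646 over all alternatives).

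**Figure D2:**
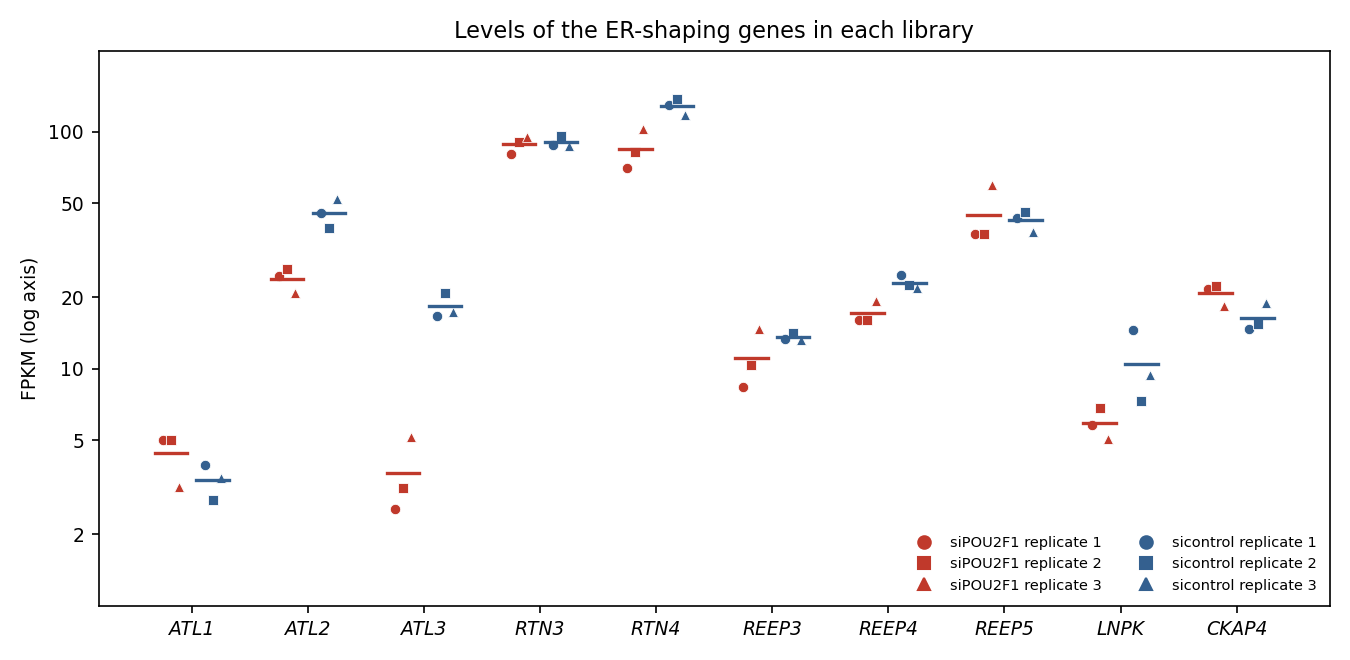
FPKM on a log axis for each of the 10 genes, with siPOU2F1 libraries (red) left of sicontrol libraries (blue), 1 point per library and the group mean as a line. ATL3, ATL2, RTN4, REEP4 and LNPK have siPOU2F1 points that all lie below the sicontrol points, and the red triangle of replicate 3 lies apart for REEP5.

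Counted together, 7 of the 10 members had a negative log2 fold change, and the median was -0.36, beside -0.01 for all tested genes, of which 51.5% were negative. In 5 members (ATL2, ATL3, RTN4, REEP4 and LNPK) every siPOU2F1 library was below every sicontrol library, as in 12.0% of tested genes. Every siPOU2F1 library was above every sicontrol library in 0 members and in 11.3% of tested genes. Without siPOU2F1 replicate 3 the fit called 5 members lower (ATL3, ATL2, RTN4, REEP3 and REEP4) and 0 higher, while 15.7% of tested genes were called lower and 9.29% higher.

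**Figure D3:**
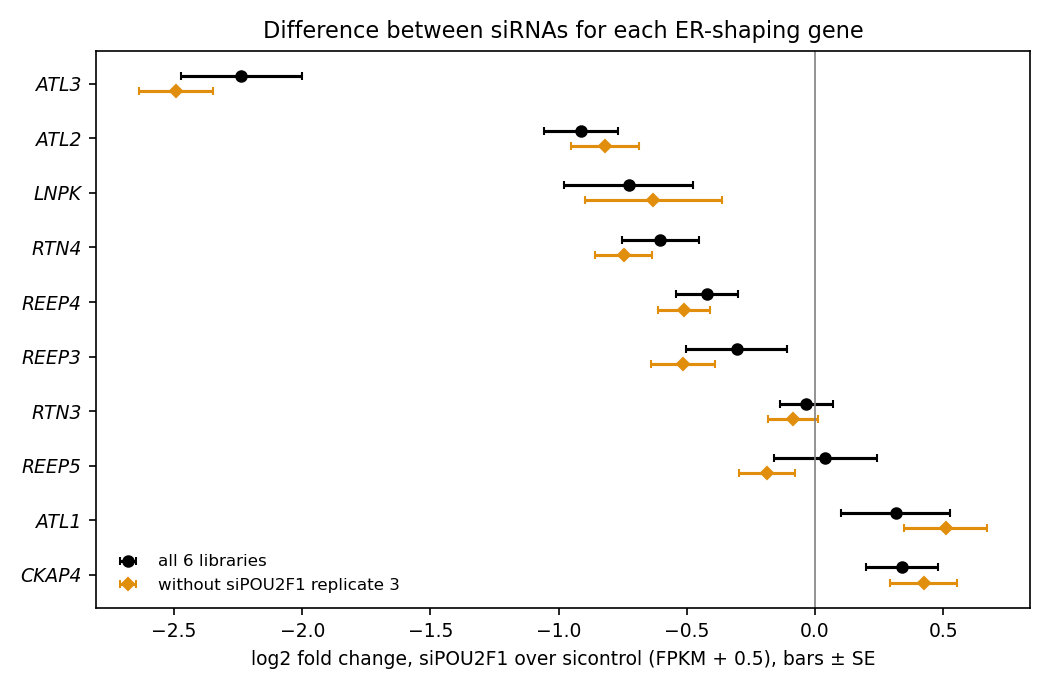
Log2 fold change of each gene (x axis, siPOU2F1 over sicontrol on FPKM + 0.5, bars ± SE) with all 6 libraries (black) and without siPOU2F1 replicate 3 (orange). ATL3 lies at -2.24 and -2.49, and REEP5 changes sign between the fits.

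ATL3 moved furthest in the order of the members by mean level. In siPOU2F1, RTN3 and RTN4 were highest at 88.7 and 85.1 FPKM and overlapped between libraries. REEP5 followed, then ATL2, CKAP4 and REEP4, of which ATL2 and CKAP4 overlapped, as did CKAP4 and REEP4. REEP3, LNPK and ATL1 came next, each separate from the next in every library as far as ATL1, and ATL3 was last at 3.62 FPKM, overlapping ATL1 at 4.39 FPKM. In sicontrol, RTN4 was highest at 128 FPKM and separate from RTN3 at 90.7 FPKM. ATL2 and REEP5 came next and overlapped, followed by REEP4, then by ATL3 and CKAP4, which overlapped. REEP3 and LNPK also overlapped, and ATL1 was lowest at 3.40 FPKM. ATL3 thus ranked 10 of the 10 genes in siPOU2F1 and 6 in sicontrol.

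ATL3 and RTN3 lie 9.5 kb apart on chromosome 11 and are transcribed away from each other, and their values differed as described above. Of 11 protein-coding genes within 250 kb of ATL3, 7 were tested and 0 were called (limma; 2 had an unadjusted p under 0.05, both higher). Of all tested genes, 0.845% were called lower and 0.397% higher, and 18.1% had an unadjusted p under 0.05 (limma). On the other side of ATL3, 7.2 kb away, PLAAT3, a phospholipase, measured 31.1, 34.7 and 24.7 FPKM in siPOU2F1 replicates 1 to 3, against 29.2, 19.2 and 27.5 FPKM in sicontrol replicates 1 to 3, with overlapping groups. SPINDOC, 141.5 kb away, had a log2 fold change of 0.56 (limma, adjusted p = 0.0922) and ZFTA, 88 kb away, 0.32 (0.267). PLAAT4 had -0.21, MARK2 -0.11 and RCOR2 0.22, with adjusted p from 0.593 to 0.682 (limma). The median of these 7 was 0.22.

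**Figure D4:**
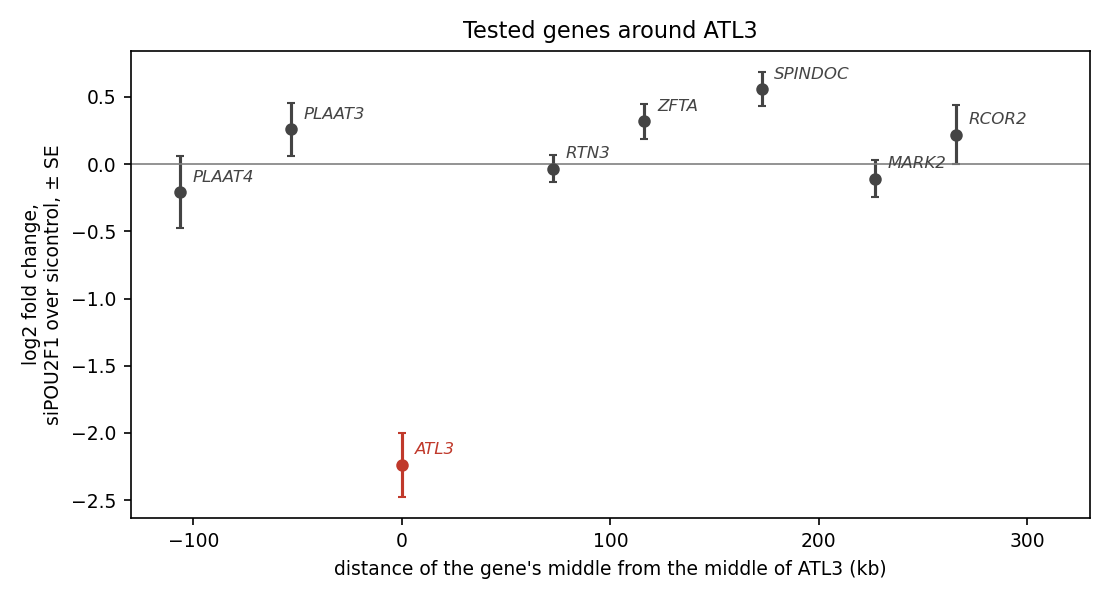
Log2 fold change ± SE (y axis, siPOU2F1 over sicontrol) of the tested genes within 250 kb of ATL3, by the distance in kb of each gene's middle from the middle of ATL3 (x axis). ATL3 lies at -2.24, while the 7 neighbours lie between -0.21 and 0.56.

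The genes with the pattern most like that of ATL3 over the 6 libraries were sought among the 8694 tested genes averaging 5 FPKM or more, by Pearson's correlation of log2(FPKM + 0.5). The points share the difference between siRNAs, so the values only describe likeness. PGRMC1, a haem-binding protein of the ER membrane, came first with r = 0.999 and measured 59.6, 63.3 and 69.6 FPKM in siPOU2F1 replicates 1 to 3, against 96.9, 104 and 97.4 FPKM in sicontrol replicates 1 to 3. HSD17B12, a reductase of fatty acid elongation, followed with r = 0.998, and TXNRD1, a thioredoxin reductase, SH3BGRL3 and GPD2, a glycerol phosphate dehydrogenase, each had r = 0.997. The correlation does not measure the size of a change. The log2 fold changes were -0.63 for PGRMC1, -0.67 for HSD17B12, -0.66 for TXNRD1, -0.15 for SH3BGRL3 (not called) and -0.98 for GPD2, beside -2.24 for ATL3. The most opposed patterns were those of CSTPP1 (r = -0.998), VPS26C, ANKRD13B and ZNF267 (each -0.995) and TLE1 (-0.994). Among members RTN4 had r = 0.959, REEP4 0.947, ATL2 0.866, REEP3 0.738, LNPK 0.669 and RTN3 0.403, whereas REEP5 had 0.143, ATL1 -0.734 and CKAP4 -0.844. POU2F1 had 0.939.

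The search for short words in 3′ untranslated regions (UTRs) was repeated for the members because earlier results of these data had named the words AACTGCA and AGAATGA as frequent among genes that were lower. Those words were chosen from the same fold changes and carry no test. Of 99 genes called lower with a UTR of at least 20 bases, 51.5% held AACTGCA and 35.4% held AGAATGA, against 12.1% and 14.7% of the 11372 not called. ATL3 and ATL2, the called members, held 0 copies of either word in UTRs of 5232 and 1114 bases, and so did ATL1, RTN3, RTN4, REEP4 and CKAP4. REEP3 held 1 copy of AACTGCA, LNPK 1 copy of each word and REEP5 2 copies of AGAATGA. The AACTGCA sites are shown with the word in capitals (GENCODE 29, GRCh38), at chr10:63623153-63623181 on the plus strand for REEP3 and chr2:175929325-175929353 on the minus strand for LNPK.
REEP3 site: aagtcctgtttAACTGCActttttcacat
LNPK site: atgaaacagtcAACTGCAgtgtttctttt

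Other ER genes were read from 6 lists by function, with 71 of 74 genes tested. SPART, RTN1 and MAP1LC3A were not tested, and SPART was listed at 0 in every library. Of the 71, 1 was called (limma; 11 had an unadjusted p under 0.05), and their median log2 fold change was -0.04, beside -0.01 for all tested genes. Among all tested genes 0.845% were called lower and 0.397% higher, and 18.1% had an unadjusted p under 0.05 (limma). Without siPOU2F1 replicate 3 the count called was 14, beside 15.7% of all tested genes called lower and 9.29% called higher. The list on tethering, fusion and RAB proteins had 1 of 13 called, higher, with 1 higher and 2 lower at an unadjusted p under 0.05 (limma), 7 of 13 negative and a median of -0.04. Those lower at the unadjusted p, named after their values were seen, were RAB10 at -0.60, without overlap between groups, and STX18 at -0.58 (limma, adjusted p = 0.106 and 0.273). STX18 overlapped, with siPOU2F1 replicate 3 among the controls and replicates 1 and 2 below them. The gene called with all libraries was ZW10, a subunit of the complex that tethers Golgi-derived vesicles to the ER. ZW10 measured 14.2, 13.7 and 15.9 FPKM in siPOU2F1 replicates 1 to 3, against 6.63, 8.06 and 6.83 FPKM in sicontrol replicates 1 to 3. Every siPOU2F1 library lay above every control by a wide margin. ZW10 rose by 0.98 on the log2 scale, SE 0.13 (limma, adjusted p = 0.0273). Its adjusted p was 0.00847 without siPOU2F1 replicate 3 and between 0.0905 and 0.184 with any other library left out (limma; 0.000286 to 0.297 over all alternatives). Its partners in that complex, RINT1 and NBAS, named here after their values were seen, had log2 fold changes of -0.04 and 0.20 (limma, adjusted p = 0.881 and 0.598).

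In the list of other tubule-shaping genes, 0 of 10 tested genes were called and 0 had an unadjusted p under 0.05 (limma), with a median of -0.03. RTN2, a further reticulon, had a log2 fold change of 0.32, JAGN1 -0.67 and SPAST, the microtubule-severing spastin, -0.23 (limma, adjusted p from 0.284 to 0.351). JAGN1 overlapped between groups, with siPOU2F1 replicate 3 among the controls and replicates 1 and 2 below them. Sheet and translocon genes had 0 of 12 called (limma; 1 lower at an unadjusted p under 0.05) and a median of -0.17. SSR3, a subunit of the translocon-associated complex, measured 60.8, 61.3 and 76.0 FPKM in siPOU2F1 replicates 1 to 3, against 88.9, 86.6 and 85.9 FPKM in sicontrol replicates 1 to 3 (limma, log2 fold change -0.40, adjusted p = 0.146). SEC63 had -0.26 and TRAM1 -0.48, both parts of the protein import machinery (limma, adjusted p = 0.316 and 0.353).

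ER-phagy receptors and their partners of the LC3 and GABARAP family had 0 of 11 called (limma; 2 higher at an unadjusted p under 0.05) and a median of 0.13. In 5 of the 11 every siPOU2F1 library was above every sicontrol library, which held for 11.3% of all tested genes. RETREG2, a reticulon-like receptor, measured 32.0, 36.6 and 34.1 FPKM in siPOU2F1 replicates 1 to 3, against 23.2, 28.4 and 24.6 FPKM in sicontrol replicates 1 to 3 (limma, log2 fold change 0.43, adjusted p = 0.136). GABARAP, the autophagosome protein that ATL3 is known to bind, had 0.21 and UBAC2, an ER-resident protein of ubiquitin-dependent degradation, 0.25 (limma, adjusted p = 0.259 and 0.283).

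Of 13 contact site genes, 10 had a negative log2 fold change, beside 51.5% of all tested genes. Their median was -0.22, beside -0.01 for all tested genes, and there were 7 in which every siPOU2F1 library was below every sicontrol library, which held for 12.0% of all tested genes. Of the 13, 0 were called (limma; 3 lower at an unadjusted p under 0.05). VAPB, an ER anchor for lipid transfer proteins, measured 14.5, 14.2 and 28.2 FPKM in siPOU2F1 replicates 1 to 3, against 29.7, 37.4 and 29.4 FPKM in sicontrol replicates 1 to 3. Its siPOU2F1 replicate 3 was close to the controls, and the log2 fold change was -0.81 (limma, adjusted p = 0.19). STIM2, a calcium sensor of the ER, had -0.58 and VPS13A, a bridge-like lipid transporter, -0.31 (limma, adjusted p = 0.172 and 0.201). In the list on lipid supply and the nuclear membrane 0 of 12 were called (limma; 1 higher and 1 lower at an unadjusted p under 0.05), with a median of -0.07. SUN1, which links the nuclear membrane to the cytoskeleton, had -0.33, CTDNEP1, a phosphatase acting on lipins, 0.23 and LBR, the lamin B receptor, -0.31 (limma, adjusted p from 0.156 to 0.298).

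**Figure D5:**
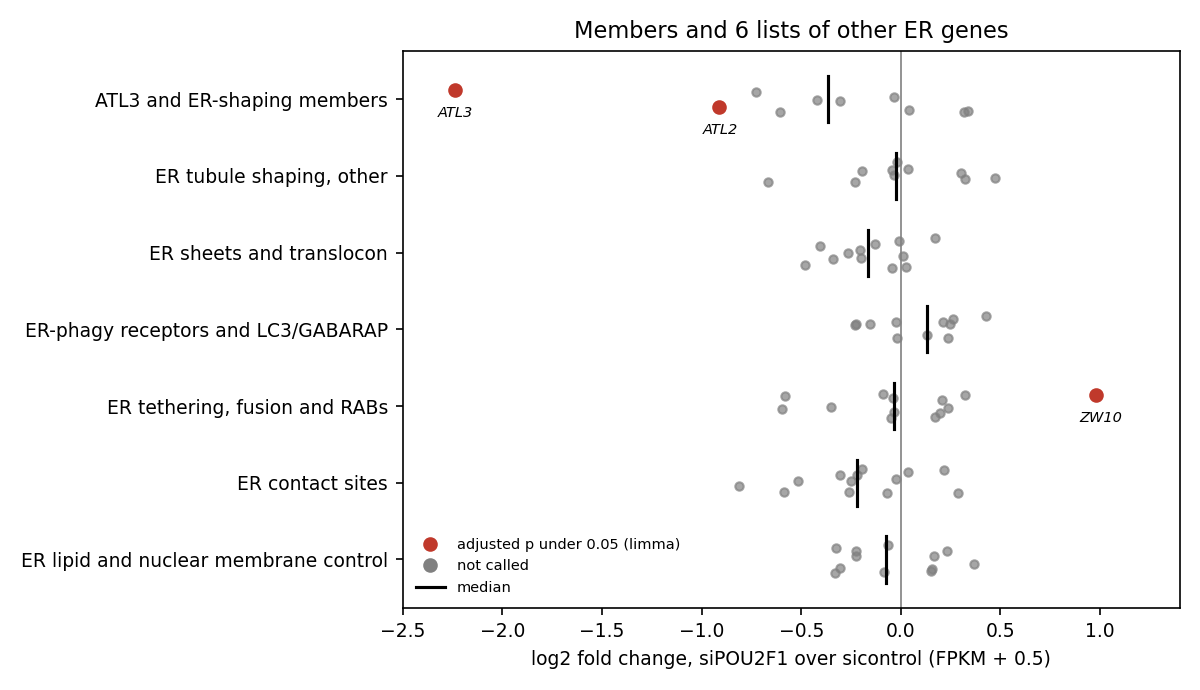
Log2 fold change (x axis, siPOU2F1 over sicontrol) of each tested gene in the member group and in 6 lists of other ER genes (y axis), with called genes in red and the list median as a bar. Among the listed genes outside the member group ZW10, at 0.98, is the called gene, and the list medians lie between -0.22 and 0.13.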

How the data were processed

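RNA from 3 siPOU2F1 and 3 sicontrol libraries of HCT116 cells was used. The authors deposited 1 table of FPKM per library with 22782 features, of which 20474 were annotated genes and 2308 assembled transcripts, which were left out. HISAT2 2.0.4, Bowtie2 2.2.5, StringTie 2.1.2 and hg38 are named, without roles, per the submitters' processing notes. The library kit is directional per the labels' protocols. The tables carry no read counts, so depth and its precision are unknown. Which annotation, filters or strand setting the authors used was not given in the sources used here.

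Values were taken as deposited, as log2(FPKM + 0.5), for the 11831 genes averaging 1 FPKM or more. limma 3.58.1 in R 4.3.3 was fitted over all of them with a mean-variance trend and group as the only term. P-values were adjusted by Benjamini-Hochberg over all tested genes, and a gene was called under 0.05. Fold changes are siPOU2F1 over sicontrol and understate changes of low genes. The procedure was tested on simulated data with noise drawn independently for each gene and library. Those data held no library that stood apart across genes, as siPOU2F1 replicate 3 did, so that case was not tested. Positions and UTRs came from GENCODE 29 (GRCh38), taking the transcript with the longest coding sequence, and promoters from RefSeq. Figures were drawn with matplotlib 3.10.9, and other steps ran with pandas 2.3.3 and numpy 2.4.6 in Python 3.11.15.

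The members and lists were chosen with earlier results of these data known. Genes named are all members, POU2F1, called genes of each list or otherwise the 3 with the lowest p, tested protein-coding genes within 250 kb of ATL3, and the 5 genes most and least like ATL3. RINT1, NBAS, RAB10 and STX18 were named after their values were seen. Alternatives varied the pseudocount, filter, scaling, trend, library weights and replicate block, and left out each library.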

Additional observations from a re-analysis of the deposited data

How the results depend on the processing

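Calls depended on the setting and on which libraries were kept, while the members, POU2F1 and ZW10 kept their direction under every alternative run, except RTN3 and REEP5. With all settings as reported, 47 genes were called higher and 100 lower, with 2 members lower. Without a filter on low values there were 24 higher and 48 lower with 1 member. Fitted without the mean-variance trend, there were 23 higher and 70 lower with 1 member. Quantile normalization left 1 member. ATL2 was no longer called without a filter (-0.91, limma adjusted p = 0.0667), without the trend (-0.91, 0.0545) or after quantile normalization (-0.90, 0.0539). POU2F1 was called with all settings as reported (limma, adjusted p = 0.0333) but not without a filter (-0.99, 0.065). With any library but siPOU2F1 replicate 3 left out, POU2F1 was not called either (limma, adjusted p from 0.114 to 0.22). An exact permutation test of its 6 values gave p = 0.1, the lowest possible with 3 libraries per group.

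Library weights, which gave siPOU2F1 replicate 3 a weight of 0.145, called 2651 genes higher and 3312 lower, 6 members lower, 2 higher and 38 other ER genes. The log2 fold changes then were 0.37 for ATL1, 0.51 for CKAP4, -0.71 for RTN4, -0.43 for REEP3, -0.56 for REEP4, -0.92 for LNPK and -0.19 for REEP5, whose sign turned.

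A replicate block, pairing libraries by number, called 0 genes higher, 0 lower, 0 members and 0 other ER genes (limma; 1208 genes and 5 members had an unadjusted p under 0.05), with ATL3 at -2.24, ATL2 at -0.91, POU2F1 at -0.99 and ZW10 at 0.98. Deviations of libraries with the same number correlated at 0.133, -0.545 and -0.512. The highest value over all pairs was 0.643, for siPOU2F1 replicate 3 and sicontrol replicate 2. Deviations from a mean of 3 libraries depend on each other, so these values cannot show whether the numbers mark a pairing.

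With each library left out in turn, between 0 and 1099 genes were called higher, 0 to 1855 lower, 0 to 5 members lower and 0 to 14 other ER genes, the highest counts each without siPOU2F1 replicate 3. The log2 fold changes ranged from 0.20 to 0.51 for ATL1, -0.94 to -0.47 for LNPK, 0.27 to 0.44 for CKAP4, -1.01 to -0.81 for ATL2, -2.49 to -2.05 for ATL3, -0.75 to -0.48 for RTN4, -0.51 to -0.13 for REEP3, -0.51 to -0.37 for REEP4, -1.06 to -0.95 for POU2F1 and 0.92 to 1.06 for ZW10. RTN3 ranged from -0.085 to 0.034, positive at 0.034 without siPOU2F1 replicate 1 and 0.0096 without sicontrol replicate 2. REEP5 ranged from -0.19 to 0.16, negative without siPOU2F1 replicate 3 (-0.19) and without sicontrol replicate 3 (-0.04). The cause of these differences was not tested. A filter at 5 FPKM gave no value for ATL1 and POU2F1, which average less. FPKM carry no depth, so no limit of detection can be given.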

Other observations

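Summed over the 10 members, mRNA came to 272, 300 and 344 FPKM in siPOU2F1 replicates 1 to 3, against 396, 402 and 379 FPKM in sicontrol replicates 1 to 3. The summed level of tubule-bending genes (reticulons and REEPs) over that of the sheet gene CKAP4, a ratio chosen after the values were seen, was 9.77, 10.6 and 15.9 in siPOU2F1 replicates 1 to 3, against 20.3, 20.5 and 14.7 in sicontrol replicates 1 to 3. The groups overlap through replicate 3 of each siRNA. The ratio of ATL2 to ATL3 was 9.65, 8.41 and 4.05 in siPOU2F1 replicates 1 to 3, against 2.72, 1.89 and 2.99 in sicontrol replicates 1 to 3, without overlap.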
